A study of Mus musculus with 12 samples.

Results

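The uncoupling proteins Ucp1, Ucp2 and Ucp3 were followed in skeletal muscle and testis of mice with and without a mutant allele of Bckdk, the kinase that holds back branched-chain ketoacid breakdown. The members were taken by gene symbol and are 3 of 47730 features in the table of normalised counts. They were picked with earlier results of these data known, so their own values are a description and were given no test. All animals were male C57BL/6J mice aged 5 to 6 months, from a line backcrossed for 10 or more generations, freely fed and sampled between ZT6 and ZT7 (hours after lights on). They were wild type (Bckdk+/+) or homozygous for a mutant allele (BckdkM/M, titled KO), and the sources used here name no driver that limits the allele to a cell type. Muscle was gastrocnemius and plantaris together. The 12 libraries form 4 groups of 3. Each mouse number has a letter. A to C are the wild-type mice in both tissues, D, F, G are the mutant mice in muscle, and D to F are labelled mutant in testis.

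Uncoupling proteins are carriers of the mitochondrial inner membrane, in the same family as the ADP/ATP carrier. Ucp1 lets protons back into the matrix in brown and beige fat cells, so that fuel oxidation gives heat. Ucp3 is a muscle protein whose transcript follows fatty acid supply. Ucp2 is made in many tissues, with high levels in immune cells and in pancreatic beta cells, and has been linked to the export of metabolites and to the control of peroxide formation.

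The upstream bases of the 3 genes are shown because Ucp2 and Ucp3 are neighbours on one strand and yet had different levels. They are the 250 bases before the RefSeq start of each gene on GRCm38.p6, plus strand, with capitals marking AGGTCA, the half-site bound by nuclear receptors such as the PPARs and thyroid hormone receptors. All 3 members matched the RefSeq table.
Ucp1, chr8:83290098-83290347: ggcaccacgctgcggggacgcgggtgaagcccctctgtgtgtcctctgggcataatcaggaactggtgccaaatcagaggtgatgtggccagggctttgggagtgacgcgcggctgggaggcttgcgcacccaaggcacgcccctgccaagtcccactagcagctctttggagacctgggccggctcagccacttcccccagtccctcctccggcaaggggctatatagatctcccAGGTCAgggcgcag
Ucp2, chr7:100493108-100493357: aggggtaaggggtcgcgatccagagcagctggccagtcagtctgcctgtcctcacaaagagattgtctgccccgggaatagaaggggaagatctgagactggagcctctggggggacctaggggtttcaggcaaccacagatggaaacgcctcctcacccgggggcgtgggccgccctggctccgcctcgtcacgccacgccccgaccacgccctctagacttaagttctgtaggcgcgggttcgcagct
Ucp3, chr7:100472741-100472990: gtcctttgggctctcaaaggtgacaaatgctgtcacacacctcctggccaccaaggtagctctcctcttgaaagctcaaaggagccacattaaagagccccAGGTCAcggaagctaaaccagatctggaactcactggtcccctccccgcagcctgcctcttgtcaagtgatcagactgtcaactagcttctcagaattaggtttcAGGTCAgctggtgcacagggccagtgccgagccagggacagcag

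On both strands, AGGTCA was found 1 time before Ucp1, 2 times before Ucp3 and 0 times before Ucp2, and 14.0% of 32851 upstream windows of the same length hold it. The E-box CANNTG, the core of sites for factors such as MyoD, was found 3 times before Ucp3, 2 times before Ucp2 and 0 times before Ucp1 (66.2% of windows). GGGCGG, the core of Sp1 sites, occurred 1 time before Ucp2 only (32.7% of windows), and TATATA 1 time before Ucp1 only (5.25% of windows). The Ucp3 window held 3 CG pairs, against 12 for Ucp1, 16 for Ucp2 and a median of 6 over all windows. These letters are a description of the windows and show no binding.

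The coding sequences of Ucp2 and Ucp3 (927 and 924 bases) were 73.96% identical, the closest pair. Ucp1 (921 bases) was 61.83% identical to Ucp2 and 63.12% to Ucp3. The longest run shared by Ucp2 and Ucp3, shown for what it says of read assignment, is 24 bases long.
shared by Ucp2 and Ucp3: aatgccattgtcaactgtgctgag
It covers positions 556 to 579 of the Ucp2 coding sequence and 553 to 576 of that of Ucp3, counted from the A of the start codon. Reads were 150 bases long, so no untrimmed read inside the coding sequences could match 2 of the members without mismatches.

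Both tissues carried the markers of their label: the sum of 11 fast fibre transcripts was 1532118 to 2706095 in muscle, and that of 9 spermatid transcripts was 153799 to 183076 in testis. Bckdk was 2420 ± 206 (SD, n = 3) in wild-type muscle and 13.8 ± 1.25 in mutant muscle. In wild-type testis it was 70.7 ± 2.68, and the libraries labelled mutant had 124 ± 12.8, which for this gene goes against that label. Every testis difference below is therefore by label. Rps13-ps1, named after its values were seen, was higher by mutant label in both tissues. Its log2 differences, mutant minus wild type, were 3.93 in muscle and 3.54 in testis (limma adjusted p = 1.1e-05 and 2.2e-05). Mitochondrially encoded transcripts took 7.65% to 8.21% of reads in 5 muscle libraries and 11.5% in mutant G. Islet hormone and granule transcripts were present in every library and were highest in muscle F and G and in testis A and B. No source states that the 3 libraries of a group came from separate litters or cages, so p-values measure the spread between these animals.

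Ucp3 was the most abundant of the 3 transcripts per length in wild-type muscle, at 589.5 ± 158 normalised counts per kilobase of exon (SD, n = 3). Ucp1 followed at 269 ± 315 and Ucp2 at 51.4 ± 4.49. Ucp1 overlapped both others: at 616 per kilobase in library A it was above Ucp3 there (408), and at 2.35 in C it was below Ucp2. With the longest transcript as the length, the Ucp2 level became 90.0 per kilobase and the Ucp3 level 755, in the same order. In wild-type testis the order was Ucp2 at 50.8 ± 3.70, Ucp3 at 6.03 ± 4.40 and Ucp1 at 1.20 ± 1.64 per kilobase, with only Ucp3 and Ucp1 overlapping within their spread.

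**Figure D1:**
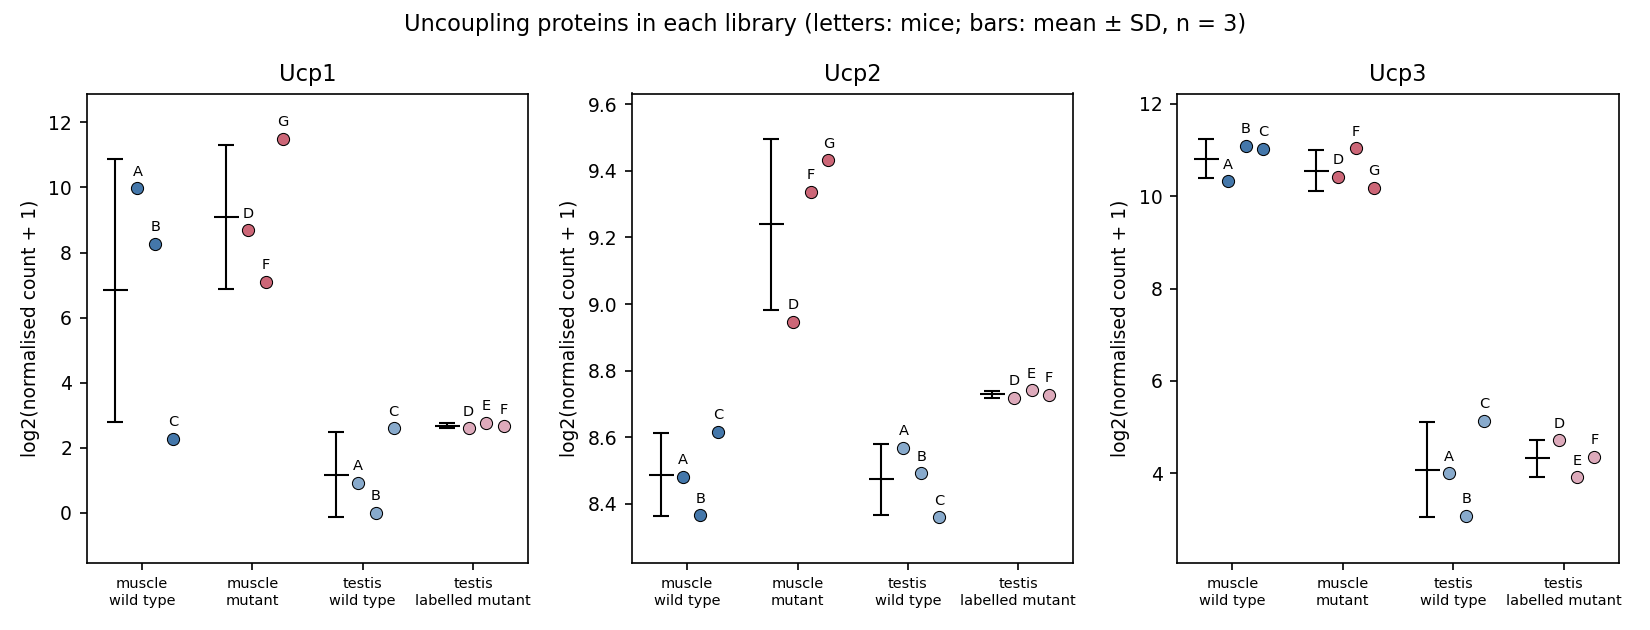
Level of each uncoupling protein in the 12 libraries as log2(normalised count + 1), 1 panel a gene with its own axis, grouped by tissue and genotype. Points are libraries with the mouse letter, and bars are the mean ± SD (n = 3). Ucp1 in muscle spreads from 3.85 to 2882 normalised counts, Ucp2 is higher in every mutant than in every wild-type library of both tissues, and Ucp3 separates the tissues.

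Ucp1 (ENSMUSG00000031710, chromosome 8, 83290352 to 83298452 on GRCm38, plus strand) varied more between animals than between genotypes in muscle. Its normalised counts were 1007, 307 and 3.85 in wild-type mice A to C, and the mutants had 409 in D, 137 in F and 2882 in G. The highest library was 748 times the lowest, and the genotype groups overlapped. The log2 difference, mutant minus wild type on log2(normalised count + 1), was 2.25 with a standard error of 2.66.

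The Ucp1 values in muscle ran in the same order as those of Cidea, a lipid-droplet protein strongly made in brown fat. Cidea was 690 in A, 170 in B, 7.70 in C, 312 in D, 81.5 in F and 1235 in G, a 160-fold range. The order of the 6 libraries was G, A, D, B, F and C for both. Cidea was singled out after its values were seen, and most of the other brown adipocyte markers did not keep that order. The whole list, 9 markers with Cidea, summed to 356 to 1682 in wild type and 561 to 2164 in mutants, with 1 marker at 0 in library C and none at 0 elsewhere in muscle. Without Cidea the other 8 summed to 993 in A, 701 in B, 348 in C, 560 in D, 480 in F and 929 in G, so C and F were again lowest, but A stood above G and B above D.

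Single markers of the list went different ways. Kcnk3 and Cpn2 kept the order of Ucp1 except that A stood above G. Kcnk3 was 203 in A, 81.2 in B, 25.7 in C, 116 in D, 65.2 in F and 173 in G. Otop1 and Ebf2 were also highest in A and G and lowest in C, and Elovl3 was highest in G and D. Zic1, a transcription factor of brown fat precursors, was highest in C at 42.4 and lowest in D at 5.70. Prdm16, which sets brown fat identity, varied only from 113 to 137, and Dio2, which activates thyroid hormone, was highest in B at 181. The ratio of Ucp1 to Cidea was between 1.31 and 2.33 in 5 libraries and 0.50 in C, where both were near the limit of counting.

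The sum of markers of fat cells in general varied with Ucp1 at both ends of the range. The sum of 10 adipocyte transcripts, among them those of adiponectin and leptin, was 9621 in library C, 30869 to 47844 in A, B, D and F, and 96652 in G. The groups overlapped, with 9621 to 47844 in wild type and 30869 to 96652 in mutants. All of the 10 except Pck1 and Lep, the leptin gene, were lowest in C and highest in G. Pck1 was highest in A at 7403, and Lep was highest in F at 834 and lowest in D at 92.4. In bulk tissue more cells of a type and more RNA per cell cannot be told apart, and the part of fat cells in the Ucp1 values was not tested. C and G had the lowest and highest adipocyte sums, and also the lowest and highest Ucp1. Without them, an omission added after the data were seen, the log2 difference in Ucp1 changed sign to -1.23. Leaving them out was bound to lower the difference, so nothing on fat cells is read from it.

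**Figure D2:**
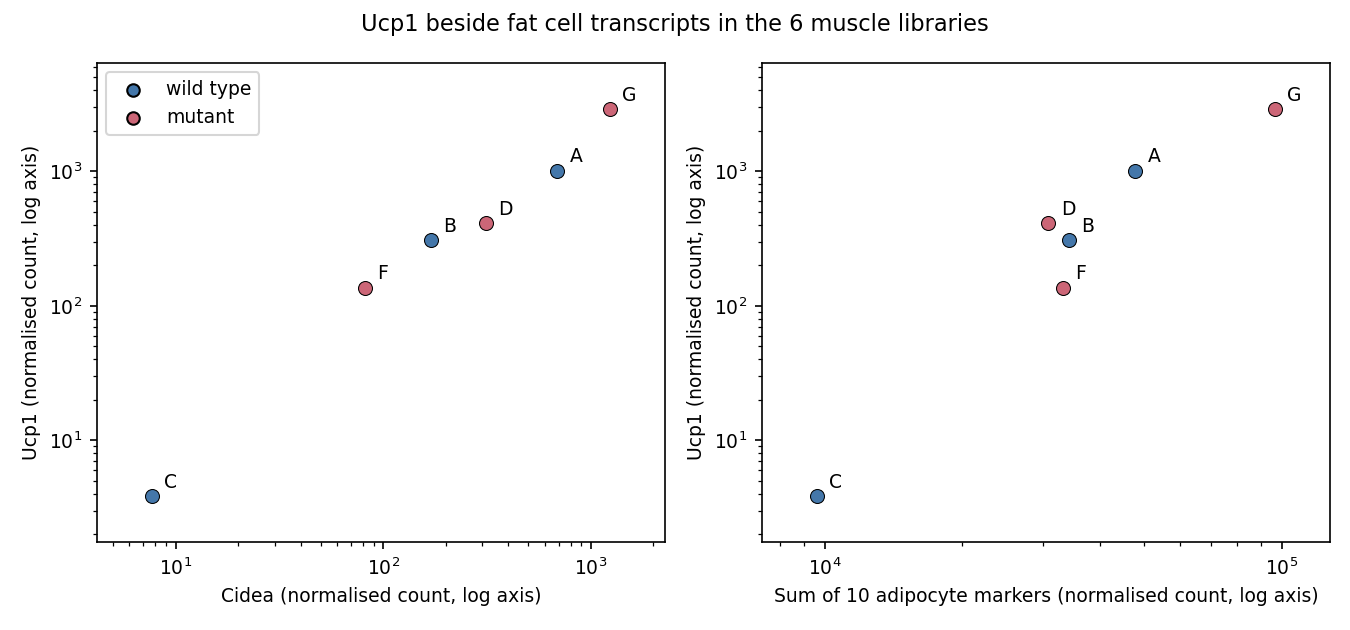
Ucp1 in the 6 muscle libraries against Cidea (left) and against the sum of 10 adipocyte markers (right), all in normalised counts on log axes. Each point is a library, lettered by mouse and coloured by genotype. Ucp1 and Cidea give the same order of libraries, with C lowest and G highest, and the 2 genotypes are mixed along it.

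Ucp1 in testis stood at the limit of counting. Wild-type mice A to C had 0.882, 0 and 5.01 normalised counts, from 1, 0 and 6 reads. Those labelled mutant, D to F, had 5.04, 5.80 and 5.33, from 5, 7 and 6 reads. The groups did not overlap, as for 9.72% of genes tested in testis in that direction, but the wild-type C and labelled-mutant D values rest on 6 and 5 reads. Ucp1 did not pass the filter on low values in testis.

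Ucp2 (ENSMUSG00000033685, chromosome 7, 100493337 to 100502020, plus strand) was higher in mutant muscle. Its normalised counts were 356, 329 and 392 in wild-type mice A to C, and the mutants had 493 in D, 646 in F and 690.0 in G. Every mutant library stood above every wild-type library. The means were 359 ± 31.4 in wild type and 609.5 ± 104 in mutants (SD, n = 3), a ratio of 1.70. The log2 difference was 0.75 with a standard error of 0.17. Of all genes tested in muscle, 5.11% were higher in the mutants without overlap. This contrast was in view when the members were picked, so nothing is read from the comparison with that share.

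In testis Ucp2 was 379, 359 and 327 in wild-type mice A to C, and 420.4, 427 and 423 in D to F, labelled mutant. The groups again did not overlap, with means of 355 ± 25.8 and 423 ± 3.15 and a ratio of 1.19. The log2 difference was 0.26 with a standard error of 0.06, and whether it differed between tissues was not tested. Of all genes tested in testis, 9.72% were higher without overlap, and 80 of 14677 genes tested in both tissues (0.545%) were so in both. Ucp2 was picked with earlier results of these data known, so neither share is read against it. The wild-type levels of Ucp2 in the 2 tissues lay within each other's spread, with a log2 difference of 0.01 and a standard error of 0.09.

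Cells known to make Ucp2 were followed through their markers. The macrophage sum (12 transcripts, none at 0 in muscle) was 4135 to 4415 in wild-type muscle and 3885 in D, 5244 in F and 5023 in G. The groups overlapped, and the sum was highest in the libraries with the most Ucp2, F and G. Single markers of the list went different ways. Lyz2, the largest, was 1429 to 1592 in wild type, 1348 in D, 2032 in F and 2118 in G. Csf1r was 511 to 622 in wild type, 502 in D, 687 in F and 477 in G. Cd163 was 356 to 403 in wild type and 190 to 291 in mutants. The lymphocyte sum of 10 transcripts was 2457 to 2914 in wild-type and 1476 to 1730 in mutant muscle, but most of it was Ighm, the antibody heavy chain of B cells. Without Ighm the other 9 summed to 338 in A, 387 in B, 290.1 in C, 315 in D, 431 in F and 528 in G, so F and G were again the highest and D lay within the wild-type range. The part of these cells in the Ucp2 values was not tested. The endothelial sum overlapped, at 7919 to 9082 in wild type and 8495 to 9491 in mutants.

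The islet sum (12 transcripts) was 13575 to 15903 in wild-type muscle, 13736 in mutant D, 32673 in F and 30749.6 in G. The mutant libraries with the most Ucp2, F and G, therefore also had the most islet transcripts, and D had a wild-type islet level with Ucp2 at 493. Without F and G, which leaves only D among the mutants, the log2 difference in Ucp2 was 0.46. As F and G held the most Ucp2, this omission was bound to lower the difference. In testis the islet sum was highest in wild-type A and B (19379 and 19214, against 10524 to 13697 in the other 4). A and B also had the lowest fast fibre sums in testis, 6296 and 341, against 13428 to 15192. Ucp2 in A and B was above that in wild-type C and below that in the libraries labelled mutant. Leaving out A and B keeps only C among the wild types and was bound to raise the Ucp2 difference, which became 0.37. These omissions cannot show the part of islet transcripts in the Ucp2 values, which was not tested.

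In testis, the sums of germ cell markers were also higher in the libraries labelled mutant, but most single markers overlapped. The spermatid sum was 153799 to 170598 in wild type against 170894 to 183076. The spermatocyte sum of 8 transcripts was 59171 to 62314 against 64454 to 64756. Every spermatid marker overlapped on its own, such as Tnp2 at 37344 to 39192 against 36238 to 47943. Most of the spermatocyte sum was Ldhc, at 37940 to 40548 against 41051 to 43043. Of the spermatocyte markers, only Ldhc and Hormad1 were higher without overlap, as were 9.72% of all genes tested in testis. Piwil1 was 5306 to 5827 against 5091 to 5747. The part of germ cells in the Ucp2 difference was not tested. Ucp2 shares 305 exonic bases (4.36% of its own) with Dnajb13, a gene of sperm flagella on the opposite strand, and how strand was treated in counting is not given in the sources used here. Dnajb13 was 2546 ± 76.5 in wild-type testis and 2896 ± 102 by mutant label, and 32.3 and 29.3 in wild-type and mutant muscle. Its part in the Ucp2 values was not tested.

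Ucp3 (ENSMUSG00000032942, chromosome 7, 100472990 to 100486432, plus strand) did not separate the genotypes. In muscle it was 1278, 2184 and 2082 in wild-type mice A to C, and 1372 in D, 2103 in F and 1158 in G. Each genotype had high and low libraries, and the log2 difference was -0.27 with a standard error of 0.36. The 3 libraries with the lowest Ucp3, G, A and D, were the 3 with the highest Ucp1. Their fast fibre sums were 1532118 to 2386052, overlapping the 2031336 to 2706095 of the other libraries. The sum of 9 slow fibre transcripts varied more, at 2791 in A, 10481 in B, 3721 in C, 8063 in D, 9950 in F and 10869 in G. The part of fibre types in the Ucp3 values was not tested. An antisense gene, Gm10603, lies across part of Ucp3 but shares 0 exonic bases with it.

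In testis Ucp3 was 15.0, 7.50 and 34.2 in wild-type mice A to C, and 25.2, 14.1 and 19.5 in D to F, an overlapping spread with a log2 difference of 0.25 and a standard error of 0.64. These levels are 0.406% to 1.85% of the wild-type muscle mean, which was 97.7 times the testis mean (log2 difference 6.74, standard error 0.64). Every wild-type muscle library stood above every wild-type testis library, as for 38.1% of genes. Fast fibre transcripts were also found in testis libraries, with sums from 341 in wild-type B to 15192 in wild-type C, or 0.0144% to 0.642% of the wild-type muscle level. The wild-type libraries lowest and highest in Ucp3, B and C, were lowest and highest in that sum. The part of muscle transcripts in testis Ucp3 was not tested.

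The wider family of mitochondrial carriers showed no called gene by genotype. Of 48 carrier genes in the table, 41 were tested in muscle with limma across all genes and 0 were called at an adjusted p below 0.05, where 0.0369% of all 16246 genes tested were called. Without adjustment, 4 of the 41 had p below 0.05, all lower in mutants, beside 9.52% of all genes, and edgeR and DESeq2 called 0. In testis 0 of 47 were called, against 0.0205% of 19543 genes, with 3 higher and 1 lower at an unadjusted p below 0.05, beside 7.09% of all genes, and 0 called by edgeR and DESeq2. The counts at an unadjusted p in the lists that follow are to be set against the same shares. The median log2 difference of the carriers was -0.04 in muscle and 0.08 in testis, beside -0.04 and 0.03 over all genes. With scaling by DESeq2's median of ratios in each tissue, 23 carriers were higher and 18 lower in mutant muscle, instead of 19 and 22, and 27 and 20 in testis, instead of 31 and 16.

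Among the carriers, the smallest p in muscle belonged to Slc25a25, a calcium-dependent ATP-magnesium/phosphate carrier, at 1099 ± 580 in wild type and 433 ± 335 in mutants (SD, n = 3; log2 difference -1.43, limma adjusted p = 0.519). Slc25a29, which carries basic amino acids, was next at 163 ± 21.7 and 117 ± 19.1. In testis the smallest p belonged to Slc25a35, at 2547 ± 12.3 and 2924 ± 66.1 (log2 difference 0.20, limma adjusted p = 0.673), and then to Slc25a23, at 154 ± 8.62 and 126 ± 5.13. None of these passed the threshold under any alternative run.

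Between the tissues of wild-type animals the carriers differed widely, as did most genes: 25 were higher and 15 lower in muscle among 47 tested. Of all genes 87.9% were called, 37.3% higher and 50.6% lower in muscle. Slc25a4, the ADP/ATP carrier of muscle and heart, was 57542 ± 8483 in muscle and 654 ± 168 in testis. Slc25a31, the ADP/ATP carrier of sperm, was 7.35 ± 1.51 and 590.0 ± 32.7. Slc25a5, the widely made ADP/ATP carrier, was 869.9 ± 136 and 341 ± 22.8. All 3 differences passed the threshold.

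Of the carriers closest to the uncoupling proteins, Slc25a27, known from brain, was higher in muscle, at 214 ± 22.8 against 66.2 ± 10.5. Slc25a30, known from kidney, was lower in muscle, at 52.4 ± 12.1 against 245 ± 8.94. Slc25a14, known from brain, was 45.6 ± 8.18 and 52.5 ± 9.49 and did not pass (log2 difference -0.20, limma adjusted p = 0.487). By tissue, then, Ucp3 stood with Slc25a4 among the carriers with a muscle level many times that of testis, and Ucp2 with Slc25a14 among those with similar levels in both.

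**Figure D3:**
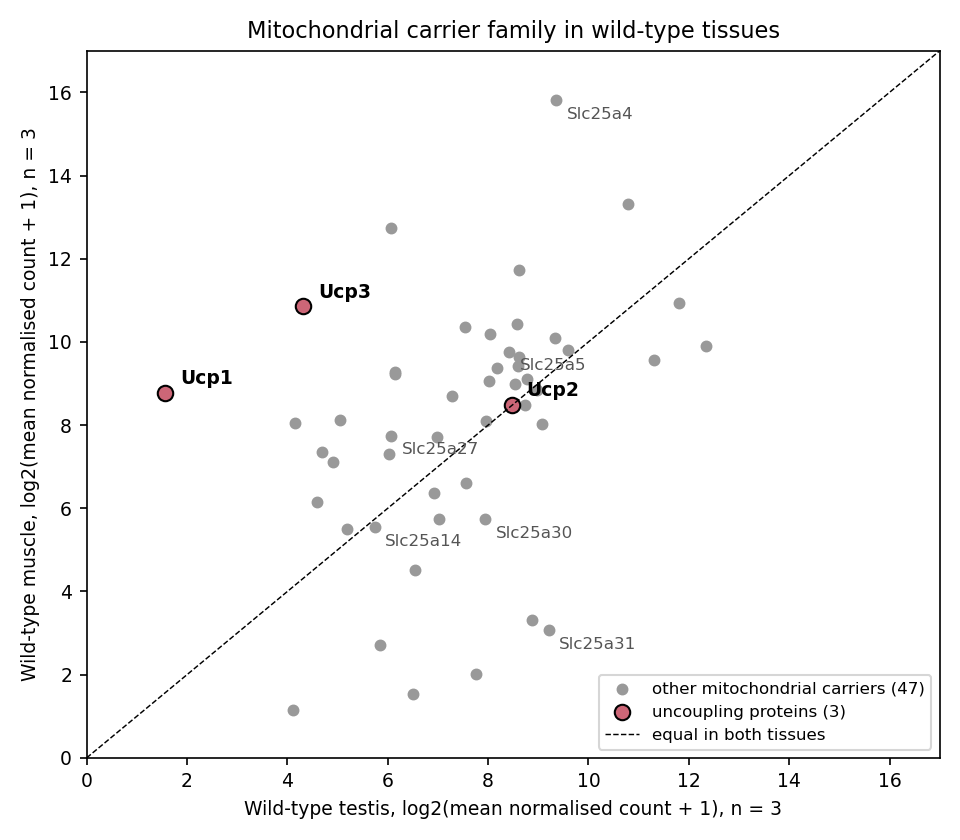
Wild-type muscle (vertical) against wild-type testis (horizontal) as log2(mean normalised count + 1), for 47 other mitochondrial carriers and the 3 uncoupling proteins, 1 point a gene, each mean over 3 libraries. On the dashed line levels are equal: Ucp2 lies on it, Ucp3 and Slc25a4 lie far above it, and Slc25a31 lies far below it.

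Genes known to control uncoupling protein transcription were not called by genotype either. Of 20 tested in muscle, 14 were lower and 6 higher in mutants, 2 lower at an unadjusted p below 0.05 and 0 called by limma, edgeR or DESeq2, with a median log2 difference of -0.10. Those 2 were Nrip1, a corepressor of Ucp1 and of oxidative genes, at 526 ± 108 and 379 ± 46.3, and Rxra, the partner receptor of the PPARs, at 3553 ± 191 and 2782 ± 646. In testis 17 were tested, with 0 called by limma, edgeR or DESeq2 and 0 below an unadjusted p of 0.05. There 9 were higher and 8 lower, or 6 and 11 with edgeR. Hnrnpk, an RNA-binding protein, was 3761 ± 79.7 and 4005 ± 86.8 there, and the thyroid hormone receptor Thra was 178 ± 28.4 and 149 ± 34.7.

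Genes that answer to fatty acids, as Ucp3 does, were higher in 17 and lower in 7 of 24 tested in mutant muscle, with 0 called by limma, edgeR or DESeq2, a median log2 difference of 0.08 and 1 lower at an unadjusted p below 0.05. One of them, Slc25a20, is also on the carrier list. The gene below 0.05 was Cpt1b, which brings fatty acids into muscle mitochondria, at 846 ± 81.4 and 551 ± 234. Ech1, of unsaturated fatty acid breakdown, was 2984 ± 58.9 and 3922 ± 938. Without mutant D, Cpt1b (log2 difference -1.02, limma adjusted p = 0.0264) and Fabp3 were called, in opposite directions. Their adjusted p otherwise missed the threshold. The run without D called 497 of all genes, against 6 in the main fit. It kept only F and G as mutants, the muscle libraries with the most islet transcripts. In testis 17 were higher and 6 lower, or 13 and 10 with TMM scaling. There 0 of 23 were called by limma, edgeR or DESeq2, with 1 higher and 1 lower at an unadjusted p below 0.05, Cpt1a at 467 ± 22.5 and 526 ± 13.5 and Angptl4, a lipase inhibitor, at 28.3 ± 0.874 and 14.9 ± 2.43.

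A list of 16 redox and stress genes was drawn up around enzymes that remove superoxide and peroxide. It also holds Hspa9, a chaperone, Pink1, a kinase, Romo1, which promotes reactive oxygen species, and Aldh2, Nnt and Glrx5, which remove neither. Of the 16, 12 were higher in mutant muscle and 14 in testis libraries labelled mutant, with median log2 differences of 0.10 and 0.11 and 0 called by limma, edgeR or DESeq2 in either. The medians over all genes were -0.04 and 0.03, and the share of all genes that were higher was not counted. The direction counts were the same under each scaling run. Several of the differences in muscle were smaller than their standard error, such as Hspa9 at 0.008 (0.149) and Romo1 at 0.027 (0.140). At an unadjusted p below 0.05 there was 1 of 16 in muscle, beside 9.52% of all genes: Gpx1, a peroxidase, at 1079.6 ± 43.2 and 1581 ± 524. It was called only when mutant D was left out, with a limma adjusted p of 0.0448, where 497 of all genes were called. Gpx4, which reduces lipid peroxides, was 4445 ± 699 and 5647 ± 1194. In testis 3 of 16 were higher at that level, beside 7.09% of all genes, among them the mitochondrial peroxidase Prdx3 at 195 ± 18.0 and 257 ± 37.1 and the superoxide dismutase Sod1 at 2139 ± 88.3 and 2365 ± 124.

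Ucp3 and Ucp2 lie head to tail on chromosome 7 with 6904 bases between them, and 27.4 Mb separate Ucp2 from Bckdk on the same chromosome. Ucp2 and Ucp3 therefore differed in their pattern within a short stretch. Within 500 kb there were 35 other features, of which 19 were tested in muscle and 18 in testis, and 0 were called in either by limma or edgeR, while DESeq2 called 1, Gm35082 in muscle. Before adjustment, 5 had p below 0.05 in muscle, beside 9.52% of all genes, and 2 in testis, beside 7.09%. Directions were mixed, with 7 higher and 12 lower in mutant muscle and 11 higher and 7 lower in testis.

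Among neighbours with a mean of at least 50 in a tissue, those with an unadjusted p below 0.05 in muscle went both ways. Pgm2l1, a glucose-1,6-bisphosphate synthase, was 534 ± 20.8 and 361 ± 70.8, C2cd3, a centriole protein, 216 ± 21.5 and 143 ± 28.7, and Arhgef17 1186 ± 92.6 and 785 ± 244. Coa4, a cytochrome oxidase assembly factor close to Ucp2, was 87.4 ± 18.5 and 127 ± 12.1. In testis they were Dnajb13, given above, and Plekhb1, at 31.6 ± 7.63 and 57.1 ± 9.68. The limma adjusted p was 0.519 for the 4 in muscle and 0.696 for the pair in testis. Without mutant D, Pgm2l1 and Arhgef17 were called in muscle (limma adjusted p = 0.0473 and 0.043). That run called 497 of all genes, against 6 in the main fit, and kept only F and G as mutants.

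The predicted long noncoding RNA Gm35082, named after its values were seen, is 187.7 kb away. It was at 0 in all 3 wild-type muscle libraries and averaged 26.1 ± 14.7 in mutants. Its limma adjusted p was 0.131, 0.0162 when no filter on low values was applied and 0.00028 with DESeq2, and its range over all alternatives was 0.00028 to 0.369. In testis it was 0 in wild type and 0.928 ± 0.891 by mutant label.

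**Figure D4:**
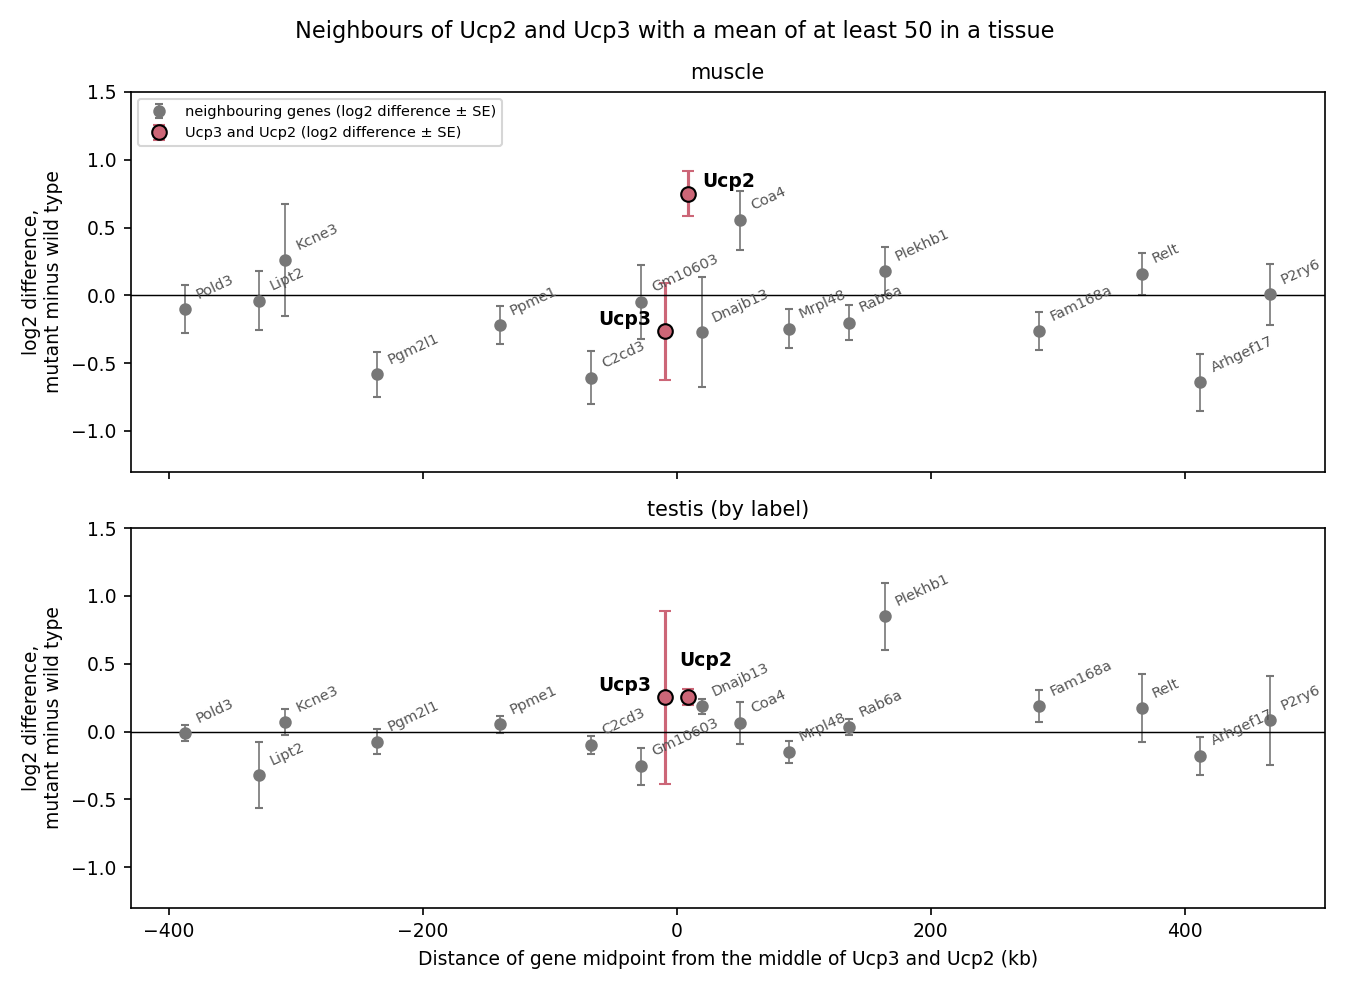
Log2 difference, mutant minus wild type, with its standard error for genes near Ucp3 and Ucp2 with a mean of at least 50 in a tissue, against distance of the gene's midpoint in kb, in muscle (top) and testis by label (bottom). Standard errors are from limma for the neighbours and from their own libraries alone for Ucp2 and Ucp3, so the bars are not of one kind. Features below that mean, such as Gm35082 at 4.59 in muscle, are not plotted. Ucp2 has a log2 difference of 0.75 in muscle, above every plotted neighbour, while Ucp3 beside it is at -0.27.

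The transcripts whose levels ran most like each member were listed over the 6 libraries of a tissue, out of 11156 genes in muscle and 11744 in testis. With so few libraries and so many genes the coefficients are a description only, and libraries share depth and tissue makeup. For Ucp2 in muscle these were Mtch1 (Pearson r 0.989), a mitochondrial outer membrane protein of the carrier family, Pcsk1n (0.989), an inhibitor of a hormone-processing protease, and Ssr3 (0.988), of the protein entry site of the endoplasmic reticulum. Pcsk1n was 74.0, 67.1 and 77.0 in wild-type mice A to C, and 101 in D, 152 in F and 186 in G. Most opposed were Dip2c (-0.99), Znfx1 (-0.99) and Zfp512 (-0.99).

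In testis Ucp2 ran most like Ppp1r13b (0.993), Tekt4 (0.989), a tektin of the sperm flagellum, and Acd (0.988), of telomere protection. It was most opposed to Mroh3 (-0.99), a septin gene whose symbol is stored as a date (-0.98) and Abr (-0.98). No gene was among the 3 nearest to Ucp2 in both tissues.

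For Ucp3 in muscle the nearest were Fam118a (0.987), Brd8 (0.979), a chromatin reader, and Umad1 (0.976). Fam219b (-0.99) and Pfkl (-0.99) were the most opposed. Pfkl, the liver form of phosphofructokinase, was 631, 377 and 343 in wild-type mice A to C, and 588 in D, 361 in F and 722 in G, so it was highest in the 3 libraries with the least Ucp3 and the most Ucp1.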

How the data were processed

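RNA was polyA-selected from about 20 mg of tissue with an RQN above 7.2 and read from both ends over 150 bases each, as the labels' protocols state. Per the submitters' processing notes, the build was GRCm38.p4 and the tools included HTSeq 0.11.2, HISAT2 2.1.0, fastp 0.23.4, DESeq2 1.46.0 and Picard 1.119, with no roles given. The authors deposited signal values per gene, counts divided by 1 size factor per library, and log2 (rlog) values. In 12 of 12 libraries 100% of the signal values gave whole reads within 0.001, 12852427 to 15795722 per library. In testis D, 26 genes hold dates and were left out of the tests that use that library.

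Members and lists were chosen with earlier results of these data known. Within each tissue, log2(normalised count + 1) was fitted across all genes with limma 3.58.1 (lmFit, eBayes with trend, two-sided, R 4.3.3), for genes with at least 10 in at least 3 libraries, and Benjamini-Hochberg adjusted over all genes tested. Genes with an adjusted p below 0.05 are the called ones. Positions and exon lengths are from GENCODE M21 on GRCm38. The genes named are the members, Bckdk, called members of each list or else the 2 with the smallest p per genotype comparison, 6 carriers, neighbours with a mean of at least 50, and the 3 most and least alike per member and tissue, predicted genes left out. One gene that this rule takes is not reported here. Other neighbours within 500 kb are given as counts. Alternatives were pseudocounts of 0.5 and 8, other filters and scalings, rlog, edgeR 4.0.16, DESeq2 1.42.0 on recovered reads, each library left out and 3 omissions added after the data were seen. The fits were tested on simulated data.

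Mouse numbers in the column names pair muscle and testis of the same animal. Deviations of wild-type A, B and C in the 2 tissues had correlations of -0.0406, 0.000339 and -0.0119 over 13516 genes.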

Additional observations from a re-analysis of the deposited data

Results flagged for a closer look

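Bckdk differed in direction between the tissues. Its log2 difference, mutant minus wild type, was -7.35 in muscle and 0.793 in testis by label, with every muscle library of the mutants below and every testis library labelled mutant above its wild-type group. The difference between the tissues was not tested.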

How the results depend on the processing

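Signs were checked for the list genes with the smallest p, the neighbours with an unadjusted p below 0.05, Bckdk and 6 carriers. None of these changed sign under the alternatives run. Other called genes, Rps13-ps1 among them, were not checked for sign. The count of called genes in muscle (6) was 14 with no filter and 36 with DESeq2, and 3 to 497 with each library left out, the highest without mutant D. In testis (4) it was 1 with a pseudocount of 0.5, a mean of at least 50, the median of ratios, TMM or without wild-type A and B, 2 with rlog and 10 with DESeq2, and 1 to 6 with each library left out. The Ucp1 log2 difference in muscle (2.25) was -1.23 without C and G, and -0.03 (without C) to 3.82 (without A) with each library left out, or 1.05 without G. That of Ucp1 in testis (1.51) was 0.46 with a pseudocount of 8. Ucp2 in muscle was 0.46 without F and G and 0.65 to 0.90 with each library left out. Ucp2 in testis was 0.37 without A and B, and 0.20 to 0.30 with each left out. Ucp3 was -0.51 to -0.08 in muscle, and -0.24 (without B) to 0.79 (without C) in testis, where it was -0.81 without A and B. Between tissues, Ucp2 was 0.18 with TMM and 0.21 with edgeR, where the median of all genes moved from -0.475 to -0.315 and -0.272, and Ucp3 was 4.96 with rlog. Called fatty acid responsive genes in muscle ranged from 0 to 2 and redox genes from 0 to 1. The cause of these shifts was not tested. No paired analysis was possible because no mouse number occurs in both genotypes of a tissue. Between wild-type tissues, the replicate block by mouse number gave 17403 calls against 17575 and left Ucp2 at 0.01 and Ucp3 at 6.74. Depth limits Ucp1 in testis, at 7 reads or fewer.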
